A study of Mus musculus with 15 samples.

Results

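The genes for the proteins of the cytosolic ribosome were followed across 4 mouse populations of blood monocytes and small intestinal macrophages. They were taken from the gene table by symbol. Of 206 symbols that began with Rpl or Rps and a number, or were Rplp0, Rplp1, Rplp2 or Rpsa, 106 pseudogenes with -ps in the symbol, 9 Rps6k kinase genes and 6 genes not annotated as protein coding were left out. This left 85 genes of the 19456 in the table, 51 of the large subunit (Rpl) and 34 of the small subunit (Rps) by symbol. Members lay on 19 chromosomes, 4 of them on X. The rule took in Rps19bp1, which encodes a protein that binds a ribosomal protein, and missed 3 genes that encode ribosomal proteins under other names, among them Fau and Rack1, which were read separately. All 85 passed the filter on low counts, and 83 averaged 1 CPM or more, the exceptions being Rpl3l and Rpl39l. CPM are counts per 1000000 of the library size as scaled by TMM, a normalization between libraries.

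RNA sequencing was performed on 15 libraries of cells sorted by flow cytometry from wild-type adult male C57BL/6 mice, with no treatment named. Ly6Chi monocytes from peripheral blood gave 3 libraries. Small intestinal macrophages gave 4 libraries for each of the subsets named DN here (Tim-4-CD4-, negative for both surface proteins), SP (Tim-4-CD4+, positive for CD4 alone) and DP (Tim-4+CD4+, positive for both), and values for the subsets in turn are in this order. Each library held the pooled cells of 3 mice, except for monocyte replicate 2, which held those of 4, and macrophages were collected on 4 occasions and monocytes on 3. The comparisons asked how the macrophage subsets differ from circulating monocytes and from each other. Pooling hides the spread between mice, so p-values here measure the spread between pools. Macrophages came from enzymatically digested gut and monocytes from blood, so the tissue and the way the cells were released cannot be told apart from the cell type in any comparison with monocytes.

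The cytosolic ribosome joins amino acids into protein, and its small subunit reads the messenger RNA while its large subunit forms the peptide bond. One copy of nearly every ribosomal protein goes into each ribosome, and the genes are scattered over the genome but are known to be controlled together. Their messenger RNAs begin with a C and a run of pyrimidines (C or T), the TOP motif, through which mTOR signaling controls their translation. Translation was not measured here.

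Sequences at the start of transcription were read as a feature that the choice of members did not use. RefSeq promoter windows of 250 bases before and 50 bases after the listed start (GRCm38.p6) were found for 65 of the 85 genes. A C at the listed start followed by at least 4 pyrimidines was present in 14 of the 65, or 21.5%, as against 3.01% of 27025 genes with a window and 0 of 69 genes for mitochondrial ribosomal proteins. Windows around the start are given for Rpl28, Rplp2, Rps6 and Rps15a, which carry such a run and were lower in all 3 macrophage subsets, and for Rpl22l1, which was higher; capitals mark the pyrimidine run, and each window holds 25 bases before and 25 bases from the start on.
Rpl28 (chr7:4792940-4792989, plus strand): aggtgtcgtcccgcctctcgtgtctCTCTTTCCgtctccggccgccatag
Rplp2 (chr7:141447626-141447675, plus strand): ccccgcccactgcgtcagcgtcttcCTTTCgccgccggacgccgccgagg
Rps6 (chr4:86857343-86857392, minus strand): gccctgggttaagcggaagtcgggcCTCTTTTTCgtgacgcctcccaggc
Rps15a (chr7:118116123-118116172, minus strand): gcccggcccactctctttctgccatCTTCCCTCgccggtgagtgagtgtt
Rpl22l1 (chr3:28805483-28805532, plus strand): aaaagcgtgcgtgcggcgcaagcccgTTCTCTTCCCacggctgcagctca

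In Rpl22l1, a paralog of the large subunit gene Rpl22, the listed start was a G, and a run of 10 pyrimidines began at the next base. A start listed a base or more away from the true one would miss a run, so the other 51 of the 65 may still begin with one. Other letters searched on both strands of the whole window were CCGGAAG, found for 26 of the 65 members, for 9.93% of all genes with a window and for 37.7% of mitochondrial ribosomal protein genes, and CTCGCGAG, found for 10.8%, 1.04% and 2.90%. These matches describe the windows and do not show that a factor binds there.

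Ribosomal protein transcripts took up a smaller share of all counts in macrophages than in monocytes. The 85 genes together held 3.40, 3.21 and 3.47% of counts in the monocyte libraries, with a mean of 3.36 ± 0.133% (SD, n = 3). In DN macrophages, the share was 2.399 ± 0.122% (SD, n = 4), with libraries at 2.49, 2.22, 2.47 and 2.42%. In SP macrophages it was 1.62 ± 0.0810% (SD, n = 4), with libraries at 1.54, 1.67, 1.70 and 1.56%. The share in DP macrophages was 1.58 ± 0.248% (SD, n = 4), and replicate 1, at 1.94%, stood above the other libraries, which lay between 1.37 and 1.53%. Monocyte, DN and CD4+ libraries did not overlap, whereas those of both CD4+ subsets did. The means of the subsets were thus 0.714, 0.482 and 0.471 of the monocyte mean, in the order given. Without replicate 1, the DP mean was 1.46 ± 0.0801% (SD, n = 3). In bulk RNA, a lower share can come from fewer copies per cell, from more of other transcripts or from a mix of cells with different levels, and fewer cells of a type and less RNA per cell cannot be told apart.

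**Figure D1:**
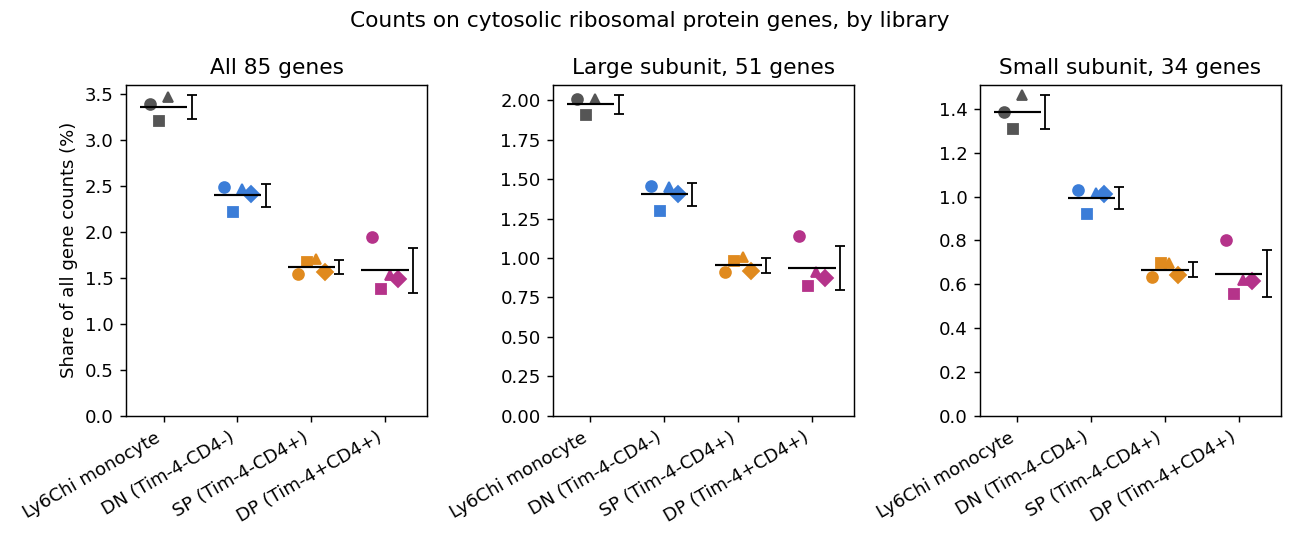
Percent of each library's counts on all 85 ribosomal protein genes, the 51 large subunit genes and the 34 small subunit genes, by population; points are libraries, with the marker shape giving the replicate, lines are means and bars are SDs. Monocytes lie highest (3.21 to 3.47% for all 85), DN macrophages next (2.22 to 2.49%) and both CD4+ subsets lowest, with DP replicate 1 at 1.94%.

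Both subunits showed this order. Large subunit genes held 1.98, 1.40, 0.953 and 0.936% of counts in monocytes and in DN, SP and DP macrophages, and small subunit genes held 1.39, 0.995, 0.667 and 0.648%. Ribosomal protein pseudogenes named -ps, 112 in the table and read for comparison, held between 0.0076 and 0.0128% in monocytes and between 0.0029 and 0.0086% in macrophages.

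The depth and identity of the libraries bear on these shares. Counts per library ran from 39388763 to 151510641, with monocytes between 48739371 and 139410518, so the groups overlapped in depth. All 6 genes that mark Ly6Chi monocytes, such as Ly6c2 and Ccr2, summed to 7320–9758 CPM in monocytes, 556–830 in DN, 76.2–137 in SP and 14.96–26.4 in DP macrophages, and 10 macrophage genes, such as Adgre1 and Mertk, to 3377–3700 CPM in monocytes and 23060–25106, 23811–27896 and 25353–31005 in the subsets in turn. The macrophage list includes Timd4 and Cd4, whose proteins were used to sort the subsets. The 15 genes of the dissociation response, such as Fos and Hspa1a, summed to 2934–3196 CPM in monocytes, 40750–49425 in DN, 34643–49518 in SP and 33752–40551 in DP macrophages. DP libraries thus lay below all DN libraries. In DP against DN, 5 of the 15 were called lower and 0 higher, as against 11.9 and 11.3% of all genes. Sums of 8 plasma cell genes were 315–375 CPM in monocytes and 3039–7340 in macrophages. Sums for 8 dendritic cell genes were 127–217 CPM in DN macrophages, 113–162 in SP, 107–142 in DP and 78.1–103 in monocytes. B cell genes summed to 258–280 CPM in monocytes and 292–458 in macrophages, and the neutrophil and eosinophil genes found in the table to 447–463 in monocytes and 154–192, 172–203 and 194–218 in the subsets in turn. These sums rest on few genes. In monocytes, 7 of 9 B cell genes averaged under 1 CPM, and 9 and 8 were called higher in DN and SP than in monocytes. Of 8 neutrophil and eosinophil genes, 4 and 4 were called higher and 3 and 4 lower there. Of all genes, 37.3 and 39.1% were higher and 28.1 and 30.7% lower. Mesenchymal genes summed to 10.8–14.2 CPM in monocytes, 70.9–105 in DN, 82.7–107 in SP and 115–164 in DP macrophages, so DP libraries lay above all others. In DP against DN, 4 of the 8 were called higher and 0 lower, as against 11.3 and 11.9% of all genes. T cell genes reached at most 20.95 CPM and epithelial genes at most 36.7 CPM in any library, and genes of the mitochondrial genome summed to 7507–9780 CPM in monocytes and 7352–8605, 8964–11121 and 8116–11842 in the subsets in turn, with SP above all DN libraries. The part that these differences have in the ribosomal protein levels was not tested.

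In DN macrophages, 50 of the 85 genes were lower than in monocytes and 2 were higher, Rpl22l1 and Rplp1 (edgeR's quasi-likelihood test with Benjamini-Hochberg adjusted p under 0.05). Among all 15802 genes tested in this comparison, 65.4% were called and 28.1% were called lower and 37.3% higher. The median log2 fold change of the members was -0.34, whereas that of all genes was 0.08, and 76 of the 83 genes at 1 CPM or more had a negative value. Libraries did not overlap, with macrophages lower, for 56 of the 85, as against 30.9% of all genes, and with macrophages higher for 4, as against 36.7%. Only 1 of the calls, that of Rpl3l, reached a 2-fold change.

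The decreases in the other subsets were larger and took in nearly the whole set. In SP macrophages, 81 members were lower than in monocytes and 1 was higher, with a median of -0.92, where 69.8% of all genes were called, 30.7% lower and 39.1% higher. In DP macrophages, 79 were lower and 1 was higher, with a median of -0.95, where 70.9% of all genes were called, 31.3% lower and 39.5% higher. Medians of all genes were 0.11 and 0.10 in these comparisons. Libraries did not overlap, with macrophages lower, for 79 and 75 members, as against 32.2 and 31.2% of all genes, and with macrophages higher for 1 and 2, as against 37.9 and 37.5%. A 2-fold change was reached by 32 and 38 of the called members. Since the 3 comparisons share the monocyte libraries, their counts are not independent.

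Comparison of the macrophage subsets, which does not rest on blood, gave a similar division. In SP macrophages, 74 of the 85 genes were lower than in DN macrophages and 0 were higher, at a median of -0.58, where 10.1% of all genes were called, 5.53% lower and 4.52% higher. In DP macrophages, 72 were lower than in DN macrophages and 0 were higher, at a median of -0.60, where 23.1% of all genes were called, 11.9% lower and 11.3% higher. The medians of all genes were -0.0030 and -0.0048. Libraries did not overlap, with the CD4+ subset lower, for 73 and 68 members, as against 9.91 and 13.8% of all genes, and for 0 and 0 with the CD4+ subset higher, as against 9.16 and 12.5%. No member changed 2-fold in either comparison, and both share the DN libraries. In DP against DN macrophages, the summed Ly6Chi monocyte genes and dissociation genes were also lower without overlap of libraries. The summed mesenchymal genes, neutrophil and eosinophil genes and macrophage genes were higher there without overlap. The macrophage list includes Timd4 and Cd4, whose proteins defined the subsets, so its sum is not independent of the sort. In SP against DN macrophages, the summed Ly6Chi monocyte genes were lower and those of the mitochondrial genome higher without overlap. The part of these differences in the result was not tested.

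Between DP and SP macrophages, 0 of the 85 genes were called by edgeR's quasi-likelihood test, where 3.41% of all genes were, 2.07% higher and 1.34% lower. The unadjusted p was under 0.05 for 4 members, and DESeq2 also called 0. Libraries did not overlap for 0 members with DP lower, as against 4.12% of all genes, and for 1 with DP higher, as against 5.51%, which was Rpl39l, at under 1 CPM. The median log2 fold change was -0.03. Values ran from -0.23 for Rplp0, with a 95% interval of -0.44 to -0.02, to 0.53 for Rps27rt, a Rps27-like gene. The interval reached a 2-fold difference for 1 of the 83 genes at 1 CPM or more, Rps27rt. The result rested on DP replicate 1. Without it, 8 members were called lower in DP macrophages (among them Rpsa, Rps3a1, Rps15a, Rps6 and Rps27a). The share of all genes called without that library is not given here, so these calls cannot be set against it.

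**Figure D2:**
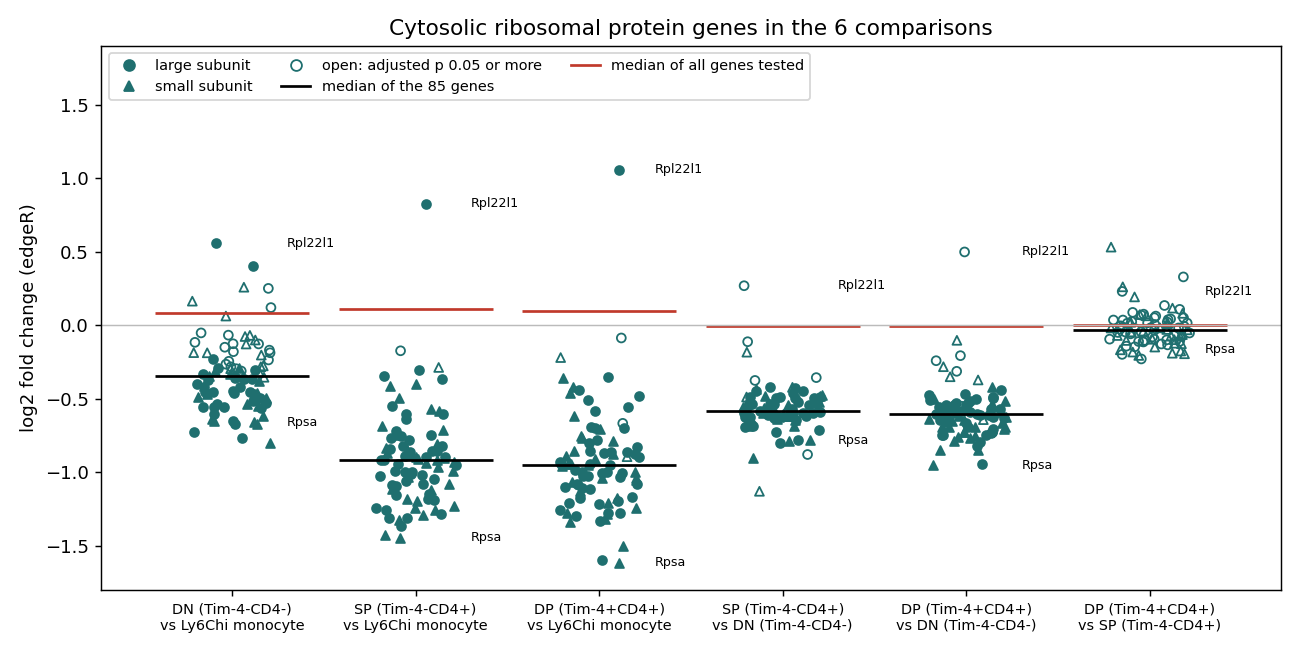
Log2 fold changes of 83 ribosomal protein genes in each of the 6 comparisons of populations, where each point is a gene (circles for the large, triangles for the small subunit) and filled points passed the adjusted p of 0.05; black lines are the medians of all 85 genes and red lines the medians of all genes tested. Rpl3l and Rpl39l, at under 1 CPM, are left out. The medians lie at -0.34, -0.92 and -0.95 against monocytes, at -0.58 and -0.60 against DN macrophages and at -0.03 between the CD4+ subsets.

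The same division was seen in both subunits. Against monocytes, the medians of large and small subunit genes were -0.36 and -0.34 in DN macrophages, -0.92 and -0.92 in SP macrophages and -0.95 and -0.95 in DP macrophages. Against DN macrophages, they were -0.58 and -0.58 in SP and -0.58 and -0.65 in DP macrophages. Of the 51 large subunit genes, 31, 48 and 47 were called lower than in monocytes in the subsets in turn, as were 19, 33 and 32 of the 34 small subunit genes. The shares of all genes called lower were 28.1, 30.7 and 31.3%.

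**Figure D3:**
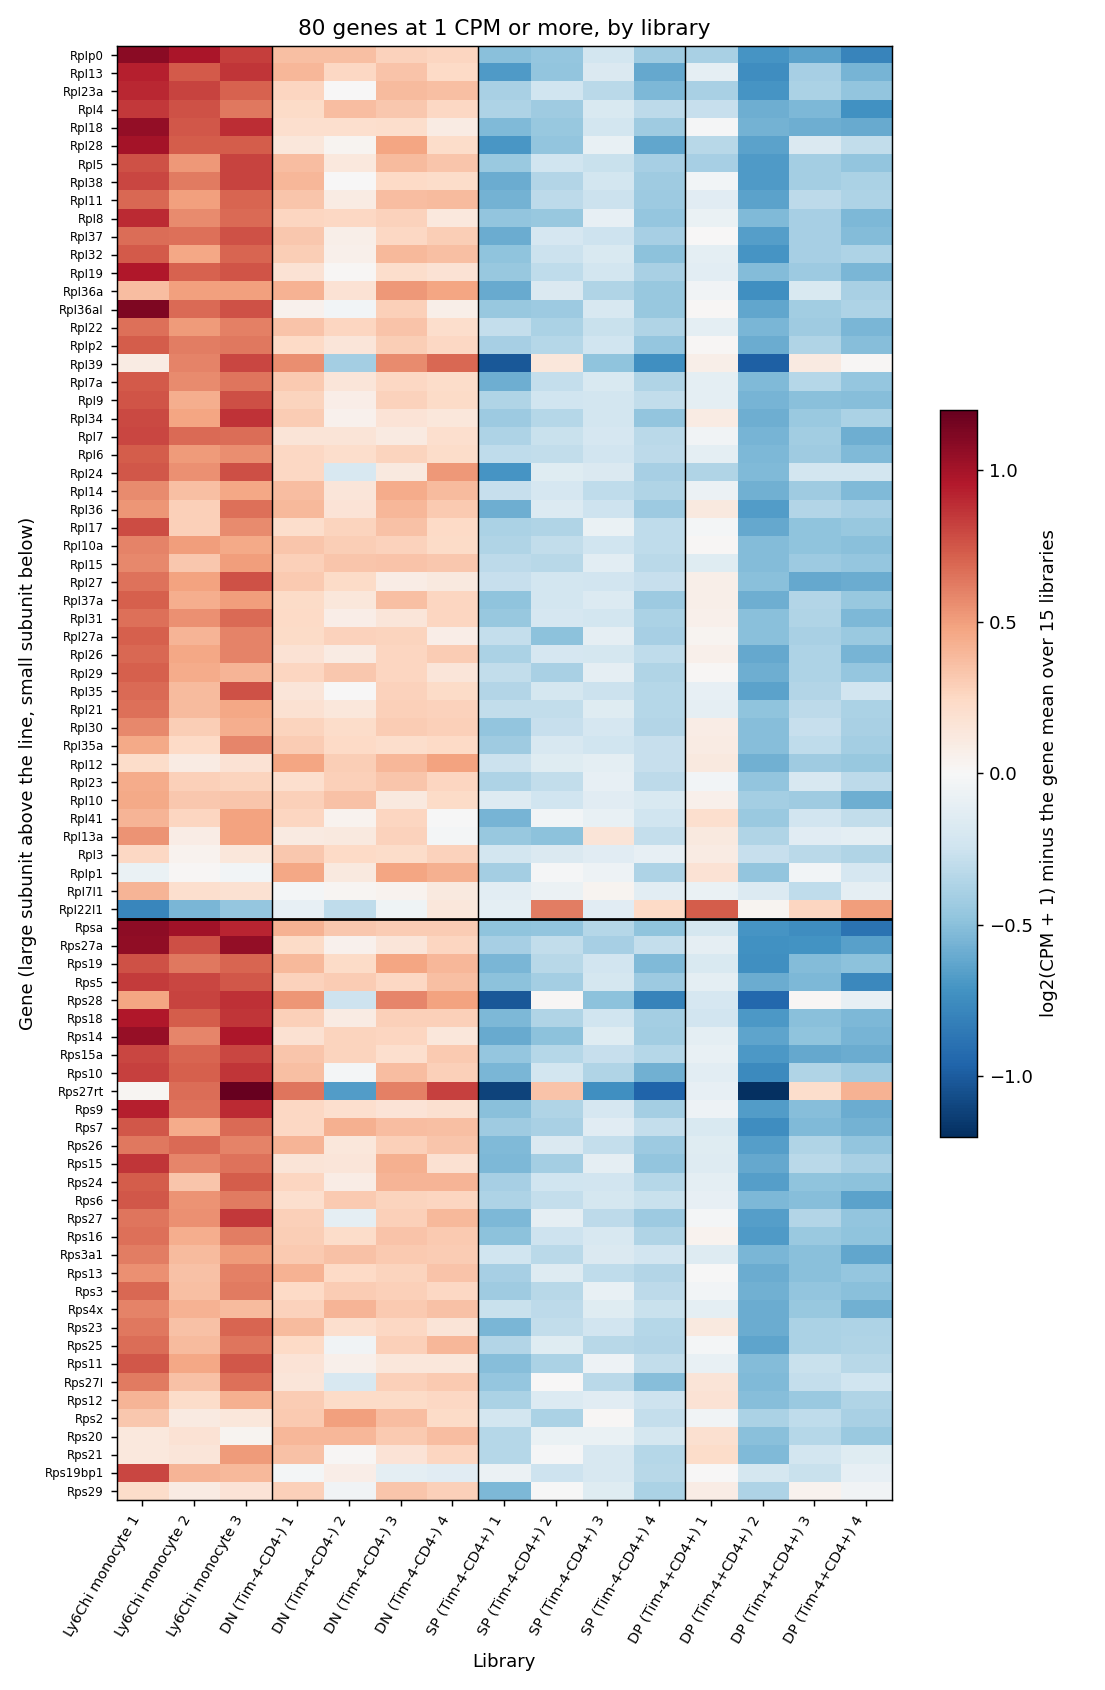
Heat map of 80 of the 83 ribosomal protein genes at 1 CPM or more (down the side) in the 15 libraries (across), as log2(CPM + 1) minus the mean of the gene over all libraries, on a color scale from -1.2 to 1.2. Monocyte libraries are above and CD4+ macrophage libraries below the mean of most genes, DN libraries lie between them, and Rpl22l1 runs the other way.

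Among members whose libraries did not overlap, the largest decreases of the CD4+ subsets against monocytes were those of Rpsa and Rplp0. Rpsa (ENSMUSG00000032518.5, chr9:120127689-120132369) encodes a small subunit protein that is also known as the laminin receptor. Its libraries read 936, 893 and 840 CPM in monocytes, 595, 557, 550 and 549 in DN, 317, 319, 350 and 318 in SP, and 384, 272, 266 and 240 in DP macrophages. Monocyte, DN and CD4+ libraries were fully apart, and the CD4+ subsets overlapped. Against monocytes, Rpsa changed by -0.66 ± 0.12 (log2, SE), -1.45 ± 0.12 and -1.62 ± 0.12 in the subsets in turn (edgeR, adjusted p = 0.000176, 2.04e-08 and 4.78e-09). Against DN macrophages, it changed by -0.79 and -0.95 in SP and DP macrophages (edgeR, adjusted p = 0.000292 and 1.38e-05).

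Rplp0 (chr5:115559467-115563727) encodes the base of the P stalk, the arm of the large subunit that recruits elongation factors, and was the most abundant member by CPM. It read 1815, 1695 and 1525 CPM in monocytes, 1102, 1105, 1037 and 1026 in DN, 607, 621, 736 and 637 in SP, and 653, 523, 547 and 494 in DP macrophages. The only libraries to overlap were those of the CD4+ subsets. Against monocytes, it changed by -0.65, -1.37 and -1.598 (edgeR, adjusted p = 3.33e-05, 4.11e-09 and 5.3e-10).

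The transcripts for the proteins that sit on the Rplp0 protein did not all follow that of Rplp0. Rplp2 read 431, 400 and 404 CPM in monocytes, 288 to 320 in DN, 189 to 221 in SP and 172 to 263 in DP macrophages, and changed by -0.42, -1.02 and -1.004 against monocytes (edgeR, adjusted p = 0.00477, 8.91e-07 and 9.89e-07). Rplp1, its partner in the stalk, read 379, 404 and 391.5 CPM in monocytes but 551, 432, 555 and 536 in DN macrophages, with all of these libraries above the monocytes. The SP libraries read 302, 395, 383 and 308 CPM and the DP libraries 450, 287, 389 and 348, and both sets overlapped with monocytes. Rplp1 rose by 0.41 ± 0.14 in DN macrophages and had values of -0.17 and -0.09 in the CD4+ subsets (edgeR, adjusted p = 0.0196, 0.282 and 0.597). Between macrophages, it was lower in the CD4+ subsets than in DN, with changes of -0.58 and -0.49 (edgeR, adjusted p = 0.00847 and 0.0117). With a gene length and GC correction, its change in DN macrophages turned to -1.67, and without monocyte replicate 1, its adjusted p was 0.0506 (edgeR).

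Rpl5 and Rpl11, which enter the large subunit with the 5S RNA and can bind the p53 regulator Mdm2 when free, were lower in 5 of the 6 comparisons, the exception being that between the CD4+ subsets. Rpl5 read 395, 335 and 409 CPM in monocytes, 254 to 303 in DN, 170 to 196 in SP and 145 to 176 in DP macrophages. Rpl11 read 374, 326 and 375 CPM, then 248 to 300, 155 to 193 and 148 to 211. Monocytes lay above macrophages, and DN above the CD4+ subsets, for both. Changes against monocytes were -0.40, -1.05 and -1.19 for Rpl5 (edgeR, adjusted p = 0.00217, 8.57e-08 and 1.5e-08) and -0.33, -1.03 and -0.99 for Rpl11 (edgeR, adjusted p = 0.0191, 7.09e-07 and 1.03e-06).

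Other large decreases were spread over both subunits. Rps27a, which encodes ubiquitin fused to a small subunit protein, read 339, 277 and 336 CPM in monocytes and 168 to 193, 122 to 132 and 96.9 to 150 in the subsets, and its log2 changes against monocytes were -0.80, -1.32 and -1.50. Rpl18 (-0.73, -1.31 and -1.33), a large subunit gene, Rps14 (-0.67, -1.29 and -1.32) and Rpl19 (-0.67, -1.16 and -1.22) followed the same order. The small subunit gene Rps18 changed by -0.61, -1.24 and -1.34, and the large subunit gene Rpl13 by -0.53, -1.31 and -1.28. All of these passed the adjusted p of 0.05 in each of the 3 comparisons (edgeR), with no overlap of libraries.

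Among macrophage subsets, the small subunit gene Rps19, whose loss causes Diamond-Blackfan anemia, read 195, 175, 207 and 197 CPM in DN macrophages, 102 to 127 in SP and 88.9 to 132 in DP macrophages. It was lower in the CD4+ subsets, with changes of -0.78 ± 0.11 and -0.85 ± 0.11 (edgeR, adjusted p = 0.000201 and 2.98e-05). Rps7 changed by -0.66 and -0.85, Rpl13 by -0.78 and -0.75 and Rpl4 by -0.62 and -0.82 (edgeR, all adjusted p under 0.05). Rpl36a changed by -0.80 and -0.73, the former being the largest decrease among members whose libraries did not overlap in that comparison.

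All 9 ribosomal protein genes listed as mutated in Diamond-Blackfan anemia (among them Rpl5, Rpl11, Rpl35a, Rps7 and Rps19) were lower in the CD4+ subsets than in monocytes and than in DN macrophages, and 6 of 9 were lower in DN macrophages than in monocytes. Their medians were -0.33, -0.99 and -1.04 against monocytes, and 0 of 9 were called between the CD4+ subsets. Of 7 members with described roles outside the ribosome (Rpl13a, Rps3, Rpl22, Rpsa, Rps27l, Rpl26 and Rps6), 6, 7 and 7 were lower than in monocytes, and 5 and 5 were lower in the CD4+ subsets than in DN macrophages. Of all 85 members, 50, 81 and 79 were lower than in monocytes. Of all genes, 28.1, 30.7 and 31.3% were lower than in monocytes, and 5.53 and 11.9% lower in the CD4+ subsets than in DN macrophages. These lists are subsets of the members and overlap with each other, and whether they differ from the other members was not tested.

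A few members did not follow the rest, and the plainest was Rpl22l1 (chr3:28805436-28807424). It read 10.1, 12.03 and 12.8 CPM in monocytes, 16.8, 14.4, 17.4 and 19.9 in DN, 16.6, 28.2, 16.4 and 21.5 in SP, and 30.5, 18.5, 21.7 and 25.9 in DP macrophages. All 12 macrophage libraries were above all 3 monocyte libraries, and the macrophage subsets overlapped. It rose by 0.56 ± 0.20, 0.83 ± 0.20 and 1.06 ± 0.20 against monocytes (edgeR, adjusted p = 0.0195, 0.00135 and 0.000155). The value in DP against DN macrophages was 0.50 (edgeR, adjusted p = 0.0548). Of its 65-base stretches of coding transcript, 52.9% were also found in another gene, so uniquely mapped reads may cover only part of it. Without monocyte replicate 1, its adjusted p in DN macrophages was 0.0765 (edgeR).

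Its partner Rpl22, whose product is known to restrain Rpl22l1 RNA, fell. It read 181, 163 and 173 CPM in monocytes and 132 to 145, 87.7 to 94.9 and 77.6 to 105 in the subsets, with changes of -0.31, -0.92 and -0.997 (edgeR, adjusted p = 0.0128, 3.9e-07 and 1.3e-07). Rpl22l1 thus made up 6.35 ± 0.926% (SD, n = 3) of the counts of the pair in monocytes, 10.9 ± 1.53% in DN, 18.4 ± 4.51% in SP and 21.8 ± 2.56% in DP macrophages (SD, n = 4 each). Libraries of DN and the CD4+ subsets did not overlap in this percentage, whereas those of both CD4+ subsets did.

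In the other pairs of members at 1 CPM or more, the percentages were as follows. Rpl7l1, a relative of Rpl7, made up 9.44, 11.6, 14.2 and 14.4% of its pair in the order of populations above. Rpl36al, an autosomal copy of the X-linked Rpl36a, made up 60.03, 48.05, 53.5 and 53.1%. It fell in all subsets against monocytes (-0.77, -1.26 and -1.21), while Rpl36a did not pass the test in DN macrophages (-0.05; edgeR, adjusted p = 0.764). Rps27l, a p53-induced copy of Rps27, made up 9.09, 9.36, 9.83 and 10.7%, and Rps27rt 3.25, 3.56, 2.44 and 3.63%.

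Exact two-sided permutation tests of log2 paralog ratios were run between macrophage subsets, 18 tests over 6 pairs. The smallest p that 4 against 4 libraries allow, 0.0286, was reached by Rpl22l1 and Rpl7l1 in both CD4+ subsets against DN, by Rps27l in DP against DN and by Rps4l in DP against both other subsets, and each had an adjusted p of 0.0735, so 0 of 18 passed. Against monocytes, 3 against 4 libraries cannot go below 0.0571, and values alone are given.

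Rps4l, an autosomal copy of the X-linked Rps4x that the annotation lists as a processed pseudogene and that is no member, was named with its pair. It read 10.4, 7.41 and 9.29 CPM in monocytes, 4.49, 6.33, 7.01 and 5.64 in DN, 5.31, 6.498, 5.02 and 4.35 in SP, and 16.4, 12.6, 14.0 and 12.97 in DP macrophages. The DP libraries were above all others. Its log2 fold change was 1.25 against DN and 1.41 against SP macrophages (edgeR, adjusted p = 2.54e-05 and 4.01e-05), and it made up 3.45% of its pair there as against 0.870 to 1.22% elsewhere. Reads of Rps4l and Rps4x can be confused, so its level is uncertain.

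**Figure D4:**
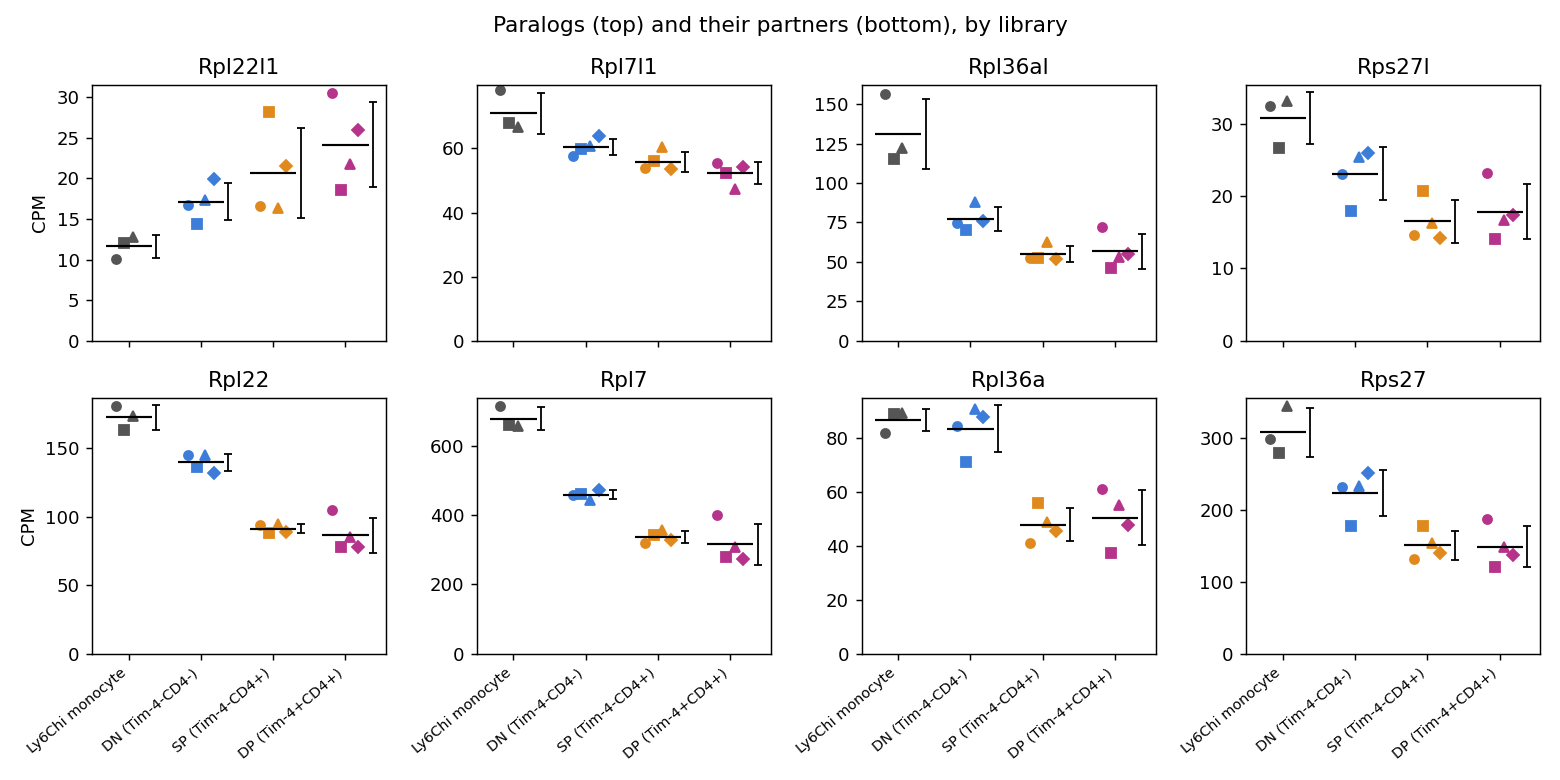
CPM of 4 paralogs and their partners (Rpl22l1 and Rpl22, Rpl7l1 and Rpl7, Rpl36al and Rpl36a, Rps27l and Rps27) by library and population; points are libraries, lines are means and bars are SDs. Rpl22l1 lies higher in all macrophage libraries (14.4 to 30.5 CPM) than in monocytes (10.1 to 12.8 CPM), and Rpl22 lies lower.

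Rpl3l and Rpl39l were nearly absent. Rpl3l, known from striated muscle, had 97, 48 and 19 counts in monocytes, 0 in all 8 DN and SP libraries and 4, 2, 0 and 10 in DP macrophages. Against a floor of 3 counts per library, it was at least 8.12-fold higher in monocytes than in DN macrophages and at least 10.6-fold higher than in SP macrophages, and setting it to these bounds left each median of the members as given. Rpl39l, known from testis, had 0 to 42 counts in a library. Rpl10l was not in the table.

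Of the 83 genes at 1 CPM or more, those not called were few in the larger comparisons. Against monocytes, they were Rplp1 and Rps20 in SP macrophages and Rplp1, Rpl39, Rps27rt and Rps29 in DP macrophages. Against DN macrophages, Rpl13a, Rpl22l1, Rpl39, Rpl41, Rpl7l1, Rps19bp1, Rps21, Rps27l and Rps27rt were not called in either CD4+ subset, and Rps28 and Rps29 were not called in DP macrophages. Rps20, a small subunit gene, read 299, 308 and 280 CPM in monocytes, 340 to 361 in DN, 215 to 259 in SP and 193 to 313 in DP macrophages. Its DN libraries were above the monocytes, with a change of 0.26 that did not pass the test (edgeR, adjusted p = 0.104). In that comparison, 32 genes of the 83 did not pass, among them Rpl3, Rpl10, Rps4x, Rps7 and Rps28.

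Some of these had uneven libraries. Rpl39, one of the shortest ribosomal proteins, read 114, 161 and 186 CPM in monocytes, 158, 80.0, 158 and 172 in DN, 52.0, 117, 76.1 and 63.4 in SP, and 112, 53.6, 115 and 108 in DP macrophages. Rps28 read 290, 168, 301 and 280 CPM in DN macrophages and 98.0, 202, 142 and 114 in SP, and 174, 104, 202 and 187 in DP macrophages. DN replicate 2, SP replicate 1 and DP replicate 2 were low in both genes. Over the 83 genes, the SD within macrophage subsets and the length of the coding transcript had a Spearman correlation of -0.49. The correlation of length with the fold change was -0.51 between the CD4+ subsets and -0.31 between DP and DN macrophages, and between -0.07 and 0.10 in the other comparisons. These are descriptions across genes that share the libraries and are not independent replicates.

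By level per length, the members spanned a wide range. Mean CPM per kilobase of coding transcript over all libraries was highest for Rps9, at 971, then Rplp1, at 817, and Rps28, at 802, and the gene in the middle was Rps7, at 324. It was lowest, among the 83, for Rpl24, at 9.44, Rps19bp1, at 10.6, and Rps27rt, at 18.6. By CPM without length, the highest means were those of Rplp0 (942), Rpl4 (799), Rps9 (729), Rpl10 (573) and Rps4x (547). Rpl24 (6.39), Rps27rt (6.96) and Rps19bp1 (8.84) had the lowest means after Rpl3l and Rpl39l. For Rpl24 and Rps27rt, 81.2 and 90.6% of 65-base stretches were shared with another gene. Counts of uniquely mapped reads can miss read pairs that lie wholly in such stretches, so the levels of these genes may be understated. Among the 40 members with at most 50% shared stretches, 26, 38 and 37 were called in the comparisons with monocytes, 32 and 31 against DN macrophages and 0 between the CD4+ subsets, and all of the calls were lower. Of all genes, 28.1, 30.7 and 31.3% were lower than in monocytes, 5.53 and 11.9% lower than in DN macrophages and 1.34% lower in DP than in SP macrophages.

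Ribosomal proteins named otherwise moved with the members. Fau, which encodes a ubiquitin-like protein fused to a small subunit protein, changed by -0.42, -0.86 and -0.90 against monocytes, and Rack1, a scaffold on the small subunit, by -0.41, -1.04 and -1.21 (edgeR, all adjusted p under 0.05). Rack1 was lower in both CD4+ subsets than in DN macrophages, and Fau in DP only by the test (-0.48; edgeR, adjusted p = 0.025), with -0.44 in SP macrophages (edgeR, adjusted p = 0.0699).

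Elongation factors and other TOP genes, a list of 22, were mostly lower too. Against monocytes, 11, 18 and 20 were lower and 2, 0 and 0 higher, with medians of -0.26, -0.64 and -0.81, where 28.1, 30.7 and 31.3% of all genes were lower and 37.3, 39.1 and 39.5% higher. Against DN macrophages, 19 and 20 were lower and 0 higher in the CD4+ subsets, with medians of -0.43 and -0.58, where 5.53 and 11.9% of all genes were lower, and 1 was lower between these. Npm1, a nucleolar chaperone on the list, was 237 ± 22.6 CPM in DN, 159 ± 11.3 in SP and 138 ± 12.3 in DP macrophages (SD, n = 4 each), with changes of -0.58 and -0.79 (edgeR, adjusted p = 0.000433 and 6.01e-06). Subunits of initiation factor 3 fell most against monocytes, with Eif3f at -1.09, -1.63 and -1.64. Eif3e was the 1 gene lower in DP than in SP macrophages (-0.30; edgeR, adjusted p = 0.021). Nap1l1 and Hnrnpa1 rose in DN macrophages (0.51 and 0.37; edgeR, adjusted p = 0.000131 and 0.000341).

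Ribosome biogenesis genes were divided. Of 70, 28, 35 and 36 were lower and 13, 8 and 6 higher than in monocytes, with medians of -0.09, -0.32 and -0.31, where 28.1, 30.7 and 31.3% of all genes were lower and 37.3, 39.1 and 39.5% higher. In the CD4+ subsets, 11 and 19 were lower and 1 and 1 higher than in DN macrophages, where 5.53 and 11.9% of all genes were lower and 4.52 and 11.3% higher. Between the CD4+ subsets, 1 was higher, Wdr46 (0.46; edgeR, adjusted p = 0.0285). Polr1a, the largest subunit of RNA polymerase I, was 34.9 ± 2.82 CPM in monocytes (SD, n = 3) and 17.2 ± 3.44, 9.09 ± 1.65 and 8.99 ± 2.13 CPM in the subsets (SD, n = 4 each), with changes of -1.02, -1.94 and -1.96 against monocytes (edgeR, adjusted p = 0.00013, 9.03e-08 and 7.52e-08). Polr1e and Rrp12 fell as well (-1.06 and -1.09 in DN). The GTPases Gnl3 and Gnl2 rose, by 1.54 and 0.49 in DN, 1.46 and 0.96 in SP and 1.23 and 1.12 in DP macrophages. Nop58, a core protein of small nucleolar particles, was higher in DN than in CD4+ macrophages and than in monocytes (0.89 against monocytes; edgeR, adjusted p = 0.000294).

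Mitochondrial ribosomal protein genes, 78 of them, were also read, whose products make the ribosome of another compartment. Against monocytes, 57, 61 and 58 were lower and 5, 3 and 3 higher, with medians of -0.45, -0.62 and -0.59, where 28.1, 30.7 and 31.3% of all genes were lower. Between macrophages, 5 and 6 of the 78 were lower in the CD4+ subsets than in DN, counts near or below the 5.53 and 11.9% of all genes called lower, and 0 were higher. Their medians were -0.16 and -0.12, where those of the cytosolic genes were -0.58 and -0.60. Between the CD4+ subsets, 0 of 78 were called. The difference between the lists was not tested. Mrpl33 changed by -2.98, -3.36 and -3.36 against monocytes, and Mrps6 and Mrpl13 rose by 1.14 and 0.76 in DN macrophages (edgeR, adjusted p = 0.00108 and 7.29e-05).

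**Figure D5:**
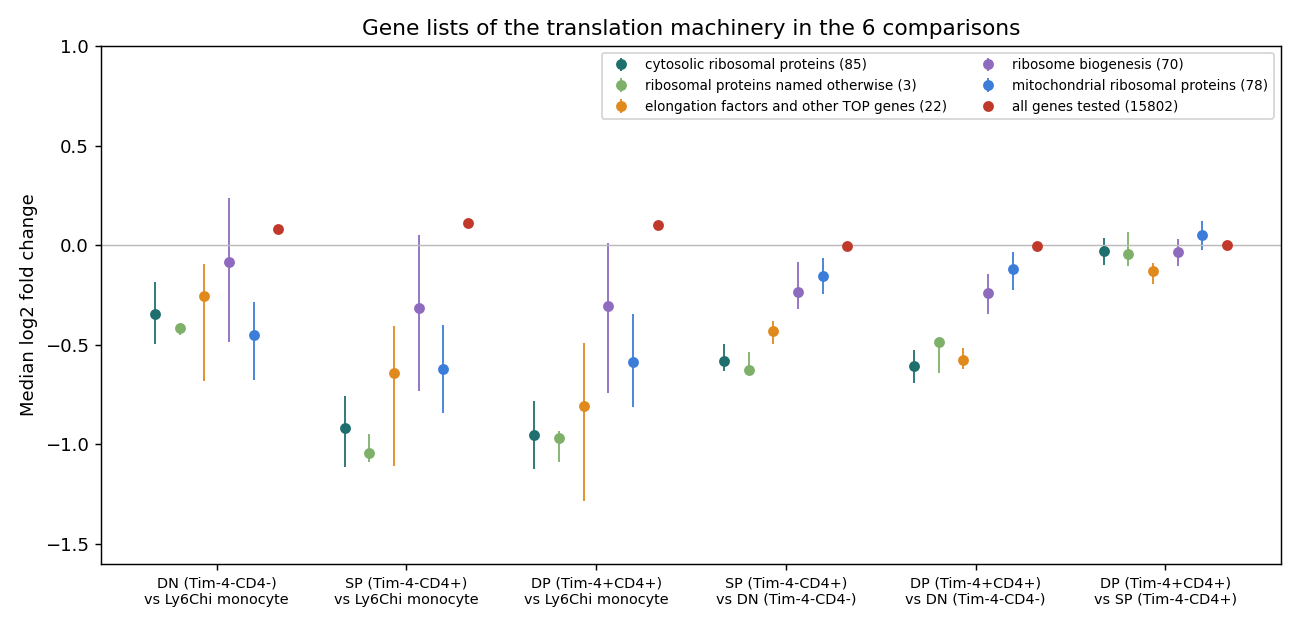
Median log2 fold change, with the interquartile range as bars, of 5 gene lists in the 6 comparisons, and the median of all genes tested. Cytosolic ribosomal protein genes and other TOP genes lie below 0 against DN macrophages (medians of -0.58 to -0.60 and of -0.43 to -0.58), and mitochondrial ribosomal protein genes had medians of -0.16 and -0.12.

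Regulators of ribosomal protein synthesis were also read, 28 of a list of 29 in the table having been tested. Against monocytes, 9, 9 and 11 were lower and 11, 12 and 11 higher, with medians of 0.10, 0.08 and -0.03, and against DN macrophages, 2 and 2 were lower and 1 and 1 higher. Of all genes, 28.1, 30.7 and 31.3% were lower and 37.3, 39.1 and 39.5% higher than in monocytes, and the counts against monocytes were close to these shares. Against DN macrophages, 5.53 and 11.9% of all genes were lower and 4.52 and 11.3% higher. Counts of 1 and 2 regulators are too small to be read beside those shares. Myc, which drives ribosomal genes in many cells, was 4.31 ± 0.636 CPM in monocytes (SD, n = 3) and 53.7 ± 1.29, 37.7 ± 3.81 and 33.9 ± 3.52 CPM in the subsets (SD, n = 4 each). It was higher in all of them than in monocytes, by 3.65, 3.14 and 2.99, and lower in the CD4+ subsets than in DN macrophages, at -0.51 and -0.66 (edgeR, adjusted p = 0.00293 and 0.000129). Eef2k, the kinase that brakes elongation factor 2, was 6.95 ± 0.584 CPM in monocytes and rose in the subsets to 55.7 ± 2.91, 79.5 ± 1.67 and 103 ± 7.56 CPM, and it was called higher in each comparison of subsets (0.51, 0.89 and 0.38). Ddit4, an inhibitor of mTOR signaling, changed by -2.36, -3.30 and -2.63, and Eif4ebp1, a repressor of initiation that mTOR switches off, by -1.74, -1.92 and -1.799 against monocytes. Between the CD4+ subsets, 2 regulators were higher in DP, Ddit4 (0.67) and Eef2k.

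Of 12 small nucleolar RNA host genes, some of which carry a TOP motif, 6, 3 and 4 were higher and 3, 2 and 2 lower than in monocytes, 1 was lower in SP than in DN macrophages, and 2 were lower and 1 higher in DP, with the same shares of all genes as background. Against DN macrophages, Rack1 was the gene lower in SP, Rack1 and Eif4a1 were lower in DP, and Snhg20 was higher in DP. Rack1 was already read as a ribosomal protein, and Npm1 is on both the TOP and the biogenesis list, so the lists are not separate. Snhg15 was 3.81 ± 0.680 CPM in monocytes (SD, n = 3) and between 30.4 and 47.1 CPM in all macrophage libraries, a rise of 3.21, 3.38 and 3.27 (edgeR, adjusted p = 6.85e-11, 3.02e-11 and 3.97e-11). Snhg20 changed by -2.18, -1.73 and -0.82 against monocytes.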

How the data were processed

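RNA was sequenced from 15 libraries of sorted cells with a stranded mRNA kit and 65-base paired reads. According to the submitters' notes and methods, reads were made with bcl2fastq 2.17.1.14, trimmed with Trimmomatic 0.36, aligned to GRCm38.p4 with STAR and counted per gene with HTSeq 0.6.1p1 against GENCODE vM11, using uniquely mapped reads. The strand setting of the counting is not given in the sources used here. The deposited values are raw counts per gene, and 15 columns of counts that the authors had divided by size factors were not used. The smallest total count of a gene in the table was 16. Since reads carry no molecular identifiers, bounds from counts cover counting error only.

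Symbols, positions and gene types came from GENCODE M21, which matched 19421 of 19456 identifiers, and promoter windows from RefSeq. Counts were filtered with filterByExpr (15802 genes), scaled by TMM and fitted with edgeR 4.0.16 (limma 3.58.1, R 4.3.3) in 1 quasi-likelihood model of population over all libraries, at a Benjamini-Hochberg adjusted p of 0.05 over all genes of a comparison. CPM are counts per 1000000 of the TMM-effective library size, and 95% intervals use the standard error and the t distribution. Paralog ratios, as log2 of counts plus 0.5, were tested by exact permutation (scipy 1.17.1, Python 3.11.15), and plots were drawn with matplotlib 3.10.9.

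Named genes were those of the paralog pairs, Fau, Rack1, the 5S particle and the P stalk, the 5 members with the largest change each way per comparison (called, mean of at least 1 CPM, no overlap of libraries), the 5 highest and 5 lowest by CPM, and 2 each way from the other lists. Values of some of these genes are not reported here. Further members named with values (among them Rps20, Rpl39, Rps28, Rpl22 and those lost or gained with a library or setting) were chosen after their values were seen. The members and lists were chosen with earlier results of these data known. Alternatives were other scalings (DESeq2 1.42.0, RLE, upper quartile, total counts, TMM without the members), other filters, fits of 2 populations, replicate blocks, thinned counts, a gene length and GC correction, a required 2-fold change and each library left out. A restriction to members with at most 50% shared 65-base stretches and a search for 2 promoter motifs were chosen after seeing the data.

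Replicate numbers of Tim-4-CD4+ libraries differ between titles and descriptions, and those of the titles were used.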

Additional observations from a re-analysis of the deposited data

Results flagged for a closer look

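Among 78 sets of 4 macrophage libraries examined for named genes, 9 had a library whose distance to the nearest of the others exceeded Dixon's 95% critical value, and chance alone is expected to give about 1 in 20. In Tim-4-CD4- macrophages, replicate 2 was low for Rpl39, at 80.0 CPM with the others between 158 and 172, and for Rplp1, at 432 CPM with the others between 536 and 555, and replicate 1 was high for Rpsa, at 595 CPM with the others between 549 and 557. In Tim-4-CD4+ macrophages, replicate 3 was high for Rpl36al, at 62.7 CPM with the others between 52.0 and 52.6, and for Rpsa, at 350.4 CPM with the others between 317 and 319, and replicate 2 was high for Rps27rt, at 7.84 CPM with the others between 2.23 and 3.18. In Tim-4+CD4+ macrophages, replicate 1 was high for Fau, at 585 CPM with the others between 361 and 369, and for Rpl3, at 516 CPM with the others between 375 and 397, and replicate 2 was low for Rpl39, at 53.6 CPM with the others between 108 and 115. The cause of these differences was not tested.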

How the results depend on the processing

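The direction of the member medians held under all alternatives run for the 3 comparisons with monocytes and for those of the CD4+ subsets with DN macrophages. Leaving out each library in turn gave 35–63, 78–83 and 77–81 called members against monocytes (DN, SP and DP, with 35 without monocyte replicate 1 and 63 without DP replicate 1), 61–77 and 70–76 against DN macrophages, and 0–8 between the CD4+ subsets, with 8 without DP replicate 1. Medians ran from -0.39 to -0.28, -0.95 to -0.85, -1.06 to -0.86, -0.63 to -0.54, -0.72 to -0.52 and -0.15 to 0.04 in the same order. With a 2-fold change required, 1, 32 and 38 members were called against monocytes and 0 and 0 against DN macrophages. Restricting to members with at most 50% shared stretches, chosen after seeing the data, gave 26, 38, 37, 32 and 31 of 40, since fewer members were read. With the gene length and GC correction, 5 members were called lower between the CD4+ subsets (among them Rplp0, Rpl14 and Rps6), the median against monocytes in DP macrophages was -1.13, and Rplp1 in DN macrophages turned to -1.67; the cause was not tested. Scaling by total counts moved the median of all genes in DN macrophages against monocytes from 0.08 to -0.05, with 67 members called and a member median of -0.48. There, Rpl22l1 and Rplp1 no longer passed the test (edgeR, adjusted p = 0.0856 and 0.109). The monocyte median share was 3.15% on TMM-effective library sizes. Same-numbered libraries deviated together with correlations of -0.12 to 0.13 by titles and -0.09 to 0.16 by descriptions. By descriptions, 5 of 12 macrophage libraries correlated best with one of their own number, and by titles 0 of 12. Such weak correlations cannot show whether libraries came from the same sort, so whether the numbers pair the samples is not known. With a replicate block by titles, 49, 82, 80, 73, 72 and 0 members were called, and by descriptions 54, 82, 83, 78, 76 and 0. Rpl22l1 in DN macrophages had an adjusted p of 0.0515 under the block by titles (edgeR). The share of all genes called under each alternative is not given here. Whether the counts of called members only moved along with that share therefore cannot be read from them.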
